A study of Mus musculus with 16 samples.

Results

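The 10 genes described here encode the core of non-homologous end joining (NHEJ), and they were chosen by name from a table of raw RNA counts for 25054 genes. They are *Xrcc5* and *Xrcc6* (the Ku heterodimer), *Prkdc* (the catalytic subunit of the DNA-dependent protein kinase), *Dclre1c* (the nuclease Artemis), *Poll* and *Polm* (gap-filling polymerases), *Xrcc4*, *Nhej1* and *Paxx* (scaffold and accessory factors), and *Lig4* (the ligase). All 10 were in the table and all 10 passed the filter on low counts, as did 15413 genes in all. *Dclre1c* RNA was lower in the tumors labeled KO for *Arid1a*, at a fitted level of 0.333 times that in WT. It was the only member past the test, which 4.01% of all tested genes passed. That call was lost in 2 fits that took the shared mice of the WT tumors into account. In these no member passed, and only 0.110% and 0.0625% of all genes did. The other 9 members had positive log2 fold changes, from 0.22 to 2.0, none of them past the test, where 55.9% of all tested genes had positive values. The value of *Lig4* came from a single tumor, and *Lig4* and *Paxx* changed sign in some alternative fits.

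The RNA came from 16 mouse osteosarcomas. The genotype of the 8 KO tumors is labeled OsxCreERT2+/-;p53fl/fl;Rb1fl/fl;Arid1afl/fl, and the 8 WT tumors carried the same alleles without the floxed *Arid1a*. Both groups thus lacked *p53* and *Rb1* in cells in which the tamoxifen-inducible Cre had acted, which are *Osterix*-expressing pre-osteoblasts and their progeny, while other cells of the host kept all these genes. Tamoxifen was injected once the mice were 1 month old, at 400 ug per g of body weight, and the mice were over 6 months old when sampled, males and females together. Each KO tumor came from its own mouse (named Massa, Medusa, Montana, Ohio, Prince, Grilka, Zelda and Oregon). The 8 WT tumors came from 4 mice, of which N42 gave 4 tumors, N43 gave 2, and N215 and N25 gave 1 apiece, that of N25 being labeled lung. The tests below treat the tumors of a mouse as separate samples, so their p-values are too small where tumors of a mouse resemble each other.

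NHEJ rejoins the ends of a broken DNA molecule without a homologous template. Ku binds the ends and recruits the kinase, Artemis opens hairpins and trims ends once the kinase has activated it, polymerases fill gaps, and the complex of XRCC4, XLF (the product of *Nhej1*) and PAXX brings in DNA ligase IV. The pathway is used in all stages of the cell cycle and is required for the assembly of antigen receptor genes in lymphocytes, where loss of Artemis, the kinase or the ligase stops lymphocyte development.

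The promoter of *Dclre1c*, the member past the test, is shown beside those of *Xrcc5* and *Xrcc6*, which encode the subunits of a single heterodimer and had the next smallest p-values. RefSeq held a promoter for 8 of the 10 members. The stretches are the 250 bases before the RefSeq start on the plus strand of GRCm38.p6, at chr2:3423881-3424130 for *Dclre1c*, chr1:72307171-72307420 for *Xrcc5* and chr15:82016119-82016368 for *Xrcc6*, whose RefSeq start lies inside the longer gene of the GENCODE annotation. Capitals mark matches on either strand to the GC box GGGCGG, the CCAAT box CCAAT, the ETS core CCGGAAG or the E2F letters TTTGGCGC, TTTCGCGC or TTTCCCGC.
Dclre1c: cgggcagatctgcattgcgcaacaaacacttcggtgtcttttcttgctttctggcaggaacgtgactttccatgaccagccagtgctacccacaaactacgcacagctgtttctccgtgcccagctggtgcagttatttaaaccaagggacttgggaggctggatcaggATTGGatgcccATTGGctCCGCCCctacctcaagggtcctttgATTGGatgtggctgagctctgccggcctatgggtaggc
Xrcc5: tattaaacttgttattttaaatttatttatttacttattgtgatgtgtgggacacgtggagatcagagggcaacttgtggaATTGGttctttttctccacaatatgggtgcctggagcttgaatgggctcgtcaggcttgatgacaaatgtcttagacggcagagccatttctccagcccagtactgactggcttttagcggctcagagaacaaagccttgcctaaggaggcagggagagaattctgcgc
Xrcc6: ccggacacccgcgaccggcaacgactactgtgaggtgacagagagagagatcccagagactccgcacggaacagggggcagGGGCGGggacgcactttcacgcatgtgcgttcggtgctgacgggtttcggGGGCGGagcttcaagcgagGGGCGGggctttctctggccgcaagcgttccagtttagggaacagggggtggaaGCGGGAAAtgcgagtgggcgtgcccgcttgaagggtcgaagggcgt
The *Dclre1c* stretch held 3 matches to the CCAAT box and 1 to the GC box, with 54.8% G and C bases. The *Xrcc5* stretch held 1 CCAAT match and no other, with 44.8% G and C. The *Xrcc6* stretch was the richest of the 3 in G and C (65.2%) and held 3 GC boxes and 1 E2F match. Among 32851 mouse promoters of this length, 33.8% held a CCAAT match, 32.7% a GC box, 6.91% the ETS core and 1.53% an E2F match, and the median G and C content was 52.4%. These matches describe letters only. No binding was measured.

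The libraries differed in depth. The counts on genes summed to between 1109487 and 15059640 per KO tumor and between 7806160 and 16962329 per WT tumor. Levels are given as CPM, the counts of a gene per 1000000 counts of the TMM-scaled library. In Massa and Grilka 3 counts were worth 6.69 and 4.03 CPM, whereas in WT libraries they were worth 0.146 to 0.340 CPM. In Massa 7 of the 10 members had 3 counts or fewer, and the 10 together had 31 counts. In Grilka 3 members were at 3 counts or fewer, and in the other 14 libraries none was. Genes of osteoblasts, the lineage of the tumor, summed to between 720.3 and 61416 CPM in KO (median 7457) and between 2925 and 84337 CPM in WT (median 56632.5). The lowest value was in Prince. Genes of other tissues stood out in several libraries of both groups. Skeletal muscle genes summed to 113244 CPM in Montana and 170594 CPM in Oregon (at most 10075 CPM elsewhere), salivary gland genes to 23608 CPM in Prince (at most 193.4 elsewhere), and lung genes to 13097 CPM in Massa and 29347 CPM in the N25 tumor (at most 80.0 elsewhere). In Zelda liver genes summed to 1969 CPM (at most 283.1 elsewhere) and erythroid genes to 1571 CPM (at most 495.4 elsewhere). The part of such genes in the members' values was not tested beyond leaving tumors out. In bulk RNA, fewer cells of a type and less RNA per cell cannot be told apart.

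The targeted gene was read first. *Arid1a* (chr4:133679008-133756769, minus strand) had between 107.1 and 269.9 CPM in the KO tumors, with a median of 178.8, and between 125.1 and 236.4 CPM in the WT tumors, with a median of 166.2. The groups overlapped over almost their whole range, and the lowest and highest values were both in KO, in Massa and Grilka. The log2 fold change, KO relative to WT, was 0.16 (standard error 0.22, edgeR quasi-likelihood test, adjusted p = 0.715). The counts cover the whole gene and do not separate reads of the floxed exons, so they do not check the labels.

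The comparison asked whether the RNA of NHEJ genes differed by *Arid1a* genotype. In the edgeR fit over all tested genes, 1 of the 10 members passed an adjusted p of 0.05, beside 4.01% of all genes tested (1.86% higher and 2.15% lower in KO). At an unadjusted p under 0.05 were 6 members, 5 of them higher in KO, where 13.3% of all genes tested were higher and 9.75% lower. The median log2 fold change was 0.81 over the members and 0.10 over all tested genes. In no member were KO and WT fully apart, which was the case for 0.415% of all genes tested.

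**Figure D1:**
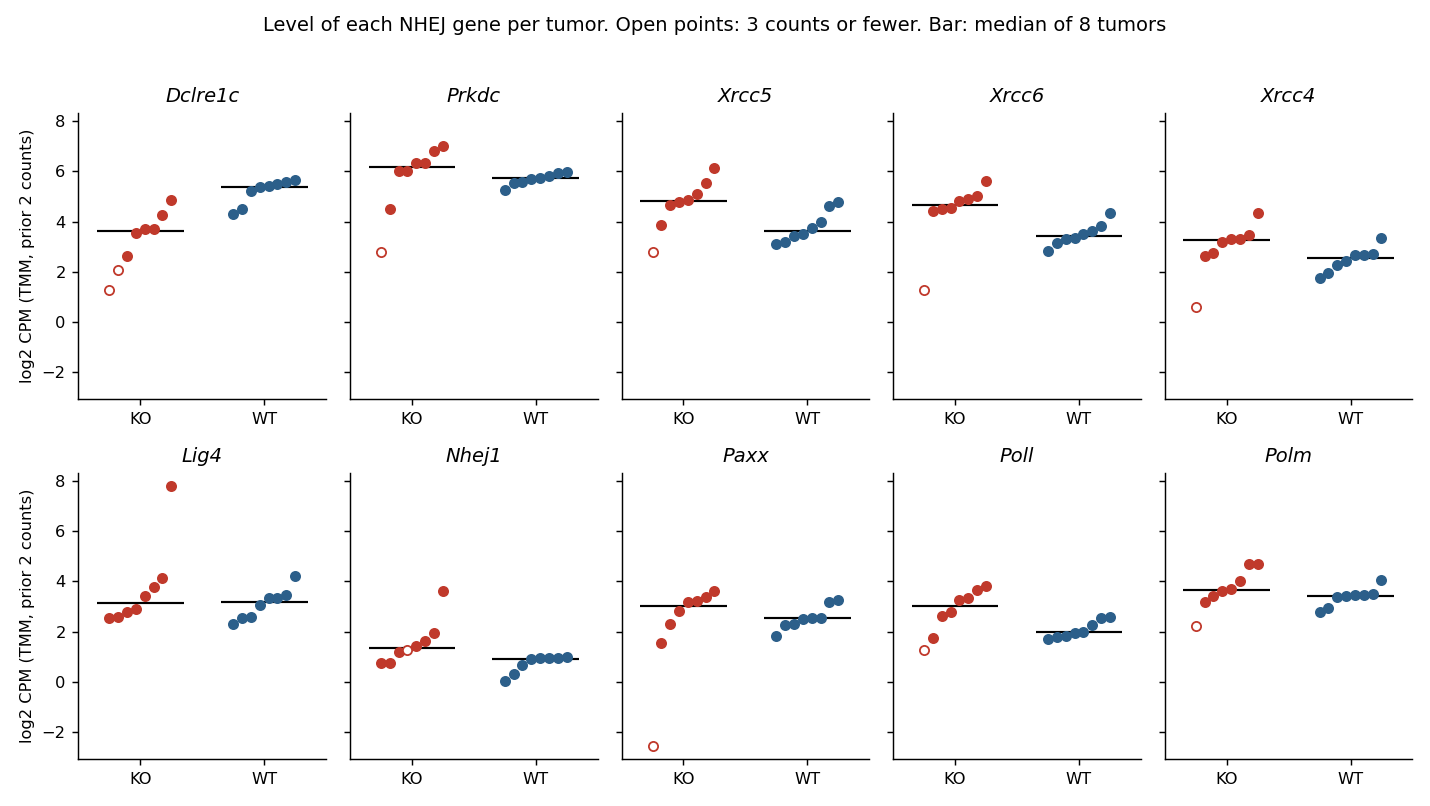
Level of each NHEJ gene as log2 CPM (vertical axis, TMM-normalized with a prior count of 2) in the 8 KO and 8 WT tumors, 1 point per tumor, with a bar at the group median and open points for 3 counts or fewer. The KO points of *Dclre1c* lie below the WT points with 1 exception, the highest KO point of *Lig4* (Medusa) stands far above all others, and the lowest KO points of several genes are open.

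Per kilobase of annotated exon, the order of the members differed between the groups. In WT the median level was highest for *Xrcc5*, at 4.83 CPM per kb, followed by *Dclre1c* at 4.50 and *Prkdc* at 3.99. Next came *Polm* at 2.89, *Paxx* at 2.70 and *Xrcc6* at 2.39 CPM per kb. *Lig4* (1.72), *Poll* (1.61), *Nhej1* (1.54) and *Xrcc4* (1.36) were the lowest. In KO, *Xrcc5* was again the highest, at 11.1 CPM per kb, and *Dclre1c* was the lowest, at 1.30, below *Lig4* at 1.69. The ranges over tumors of neighbors in this order overlapped in each group, so the order of neighbors is not resolved. The lengths count every annotated exon, and the transcripts in use were not determined.

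The Ku genes came first in the pathway and were both at higher levels in most KO tumors. *Xrcc5* (chr1:72307421-72394952, plus strand) encodes Ku80. It had between 6.69 and 70.5 CPM in KO (median 28.4) and between 8.42 and 27.3 CPM in WT (median 12.3). Of the KO tumors 5 were above all WT tumors, with Oregon the highest, and Massa alone was below them, on 3 counts. This gave a log2 fold change of 1.10 (standard error 0.39, adjusted p = 0.107).

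*Xrcc6* (chr15:81987835-82040085, plus strand) encodes Ku70. It had between 2.23 and 49.2 CPM in KO (median 25.6) and between 6.97 and 20.0 CPM in WT (median 10.7). The groups separated except for Massa: the 7 other KO tumors lay above every WT tumor, and Massa, with 1 count, lay below them. Its log2 fold change was 1.19 (standard error 0.37, adjusted p = 0.0702). Without Massa it was 1.34 (adjusted p = 0.0127), and *Xrcc5* was then at 1.23 (adjusted p = 0.0479), while without the WT tumor of N215, the highest WT tumor for both genes, *Xrcc6* was at 1.38 (adjusted p = 0.0399). DESeq2 placed both genes past the threshold on all 16 tumors, at an adjusted p of 0.0381 for *Xrcc5* and 0.00224 for *Xrcc6*. That fit called 12.5% of the genes it tested, 7.76% as higher in KO. Exact permutation of the *Xrcc5* levels (log2 CPM) gave p = 0.0491 over tumors and p = 0.303 over mouse means. For *Xrcc6* the same permutation gave p = 0.0866 and p = 0.293. In the annotation 7.69% of the exon bases of *Xrcc6* are shared with *Desi1* on the opposite strand, and whether the counting used strand is not given in the sources used here.

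The balance of the Ku subunits was compared within tumors, where library scaling cancels. The log2 ratio of *Xrcc5* to *Xrcc6* was 0.34 ± 0.81 (SD, n = 8) in KO and 0.31 ± 0.51 (SD, n = 8) in WT. The difference of 0.03 was far smaller than the spread between tumors (two-sided exact permutation test over 12870 splits, p = 0.939).

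*Prkdc* (chr16:15637866-15842235, plus strand), the kinase that Ku recruits, had between 6.69 and 127.8 CPM in KO (median 72.5) and between 38.7 and 62.4 CPM in WT (median 52.6). The WT tumors lay close together, and the KO tumors surrounded them, with 6 above all WT tumors and with Massa and Grilka below. The log2 fold change was 0.44 (standard error 0.38, adjusted p = 0.519). Without Massa and Grilka it was 0.73 (adjusted p = 0.0463). That fit called 5.36% of all genes tested, with 2.96% higher in KO. With every tumor kept, exact permutation of the *Prkdc* levels (log2 CPM) gave p = 0.962 over tumors and p = 0.978 over mouse means. The difference over mouse means was −0.03, opposite in sign to the fitted value.

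*Dclre1c* (chr2:3424131-3464130, plus strand) encodes Artemis, the nuclease that the kinase activates. In KO the lowest value was 2.23 CPM, in Massa, which was 1 count with a 95% exact Poisson interval of 0.0565 to 12.4 CPM. Grilka had 4.03 CPM, Montana 6.12, Medusa 11.4, Oregon and Prince 12.9 each, Ohio 18.9 and Zelda 28.8. In WT the 4 tumors of N42 had between 41.2 and 50.4 CPM, those of N43 had 36.9 and 42.7, that of N215 had 22.3 and that of N25 had 19.4. All 8 KO tumors were below the WT median of 41.9 CPM, 7 of them were below every WT tumor, and Zelda reached into the range of N215 and N25. Within WT the tumors of N42 and N43 were alike and about 2 times those of the other mice.

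The log2 fold change of *Dclre1c* was −1.58 (standard error 0.39, 95% interval −2.40 to −0.77, adjusted p = 0.0323). An exact two-sided permutation test of log2 CPM gave p = 0.000622 over the 16 tumors and p = 0.0263 over the means of the 12 mice, where the smallest p possible is 0.00202. DESeq2 gave −1.51 (adjusted p = 0.00233). The fit lost the call when the mouse was a random effect in limma-voom (−1.29, adjusted p = 0.362, with 0.110% of all genes called). The call was lost too when the counts were summed per mouse (−1.27, adjusted p = 0.599, with 0.0625% called) and without the 4 tumors of N42 (−1.22, adjusted p = 0.596, with 8 of 16050 genes called). It was lost as well without Prince, Montana and Oregon, which held the most RNA of salivary gland or muscle (−1.44, adjusted p = 0.0966, with 439 of 16616 called). The fit lost it also with the level of *Gm23935*, a gene whose counts follow ribosomal RNA, as a covariate (−0.66, adjusted p = 0.692, with 8 of 15413 called). It also lost the call without any 1 of 9 tumors, at an adjusted p of 0.0517 without Medusa, 0.0562 without Montana and 0.0574 without Oregon. For the other 6 it was 0.0588 without N43 spine, 0.0560 without N43 pelvis, 0.0715 without N42 R pelvis, 0.0657 without N42 R femur, 0.0581 without N42 L limb and 0.0703 without N42 L shoulder, while the log2 fold change stayed between −1.89 and −1.47 over all 16 omissions. In the annotation 3.83% of the exon bases of *Dclre1c* are shared with *Suv39h2* on the opposite strand.

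**Figure D2:**
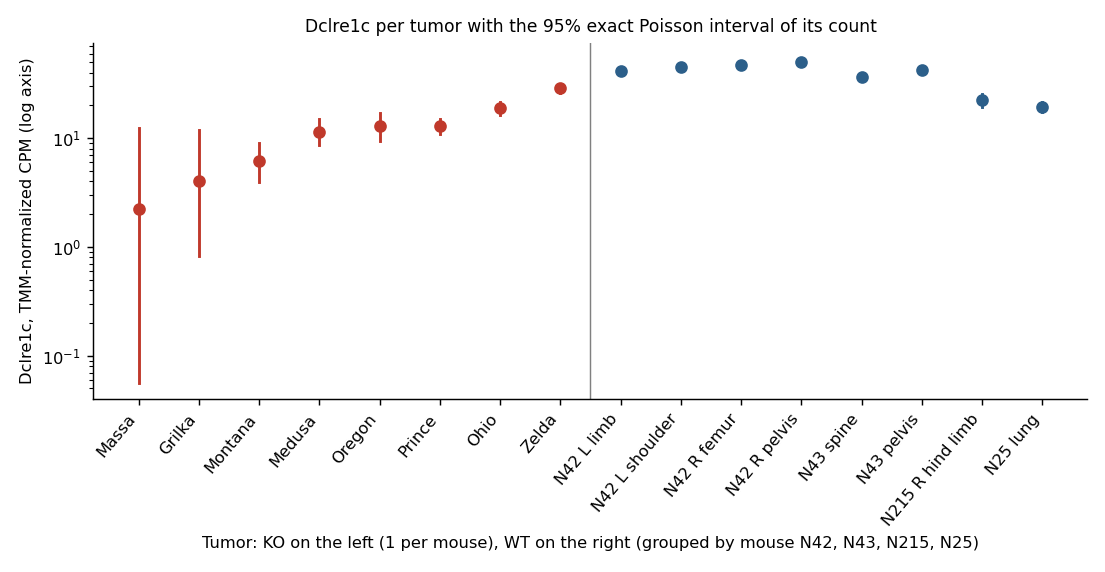
*Dclre1c* in CPM on a log axis for each tumor, KO in red and WT in blue with the WT tumors grouped by mouse. Lines are 95% exact Poisson intervals of the count and cover counting error only. The intervals of Massa and Grilka are wide, those of the WT tumors are mostly hidden by the points, and Zelda (28.8 CPM) is the only KO tumor above N215 (22.3) and N25 (19.4).

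Markers of another cell type moved with *Dclre1c*. All 12 tested macrophage genes had negative log2 fold changes, with a median of −2.07, and 9 of the 12 were past the test, all lower in KO (2.15% of all genes tested). They summed to between 306.3 and 2065 CPM in KO (median 419.7, highest in Massa) and between 722.1 and 2737 CPM in WT (median 2434). None of the 12 was at 0 outside Massa, where 4 were. By their mean log2 CPM, Massa was instead the lowest of all tumors (2.37). The most abundant were *Lyz2*, *Csf1r* and *Mrc1*, and of these *Csf1r* (−2.03, adjusted p = 0.0164) and *Mrc1* (−2.33, adjusted p = 0.00530) passed the test, while *Lyz2* did not (−0.99, adjusted p = 0.414).

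Pearson's r of *Dclre1c* with the mean log2 CPM of the macrophage genes was 0.77 over the 8 KO tumors (exact permutation p = 0.0207, 0.110 after adjustment over 16 such relations, Spearman's rho 0.62, exact p = 0.115). It was −0.15 without Massa and Zelda, the 2 KO tumors farthest from the median of the macrophage level, so the relation in KO rests on these. Over the 8 WT tumors, of 4 mice, r was 0.97, given as a description. It was of like size with the osteoblast genes, at 0.96 in WT (0.26 in KO, exact permutation p = 0.524, adjusted 0.722), and 9 of the 14 tested osteoblast genes had negative log2 fold changes, with a median of −0.76 and none past the test. A fit chosen after the values were seen had a macrophage score as a covariate. The score was the mean log2 CPM of the macrophage genes, each first standardized over the 16 tumors. In that fit the log2 fold change of *Dclre1c* was 0.05 (95% interval −0.98 to 1.09, adjusted p = 0.988), and 0.396% of all genes were called. KO and WT overlapped little in macrophage level, so genotype and macrophage content cannot be told apart in that fit.

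Genes of lymphocytes, which use Artemis, were read for the same reason. The 13 lymphoid genes in the table summed to between 13.4 and 895.0 CPM in KO (median 93.5, highest in Zelda) and between 59.1 and 174.8 CPM in WT (median 105.2), and only 4 of them had enough counts to be tested, none past the threshold. In WT most of the sum was *Ebf1*, a gene also expressed outside lymphocytes, with a mean of 87.3 CPM there and 98.4 CPM in KO, and Grilka had 10 of the 13 genes at 0, so the sum does not give a lymphocyte level. Over the KO tumors r of *Dclre1c* with the mean of the 4 tested genes, *Ebf1* included, was 0.88 (exact permutation p = 0.00201, adjusted 0.0321, rho 0.90) and 0.95 without Grilka and Zelda, and over the WT tumors it was −0.57. *Dntt*, which is specific to developing lymphocytes, averaged 0.0593 CPM in KO and 0.0188 CPM in WT. The part of lymphocyte RNA in the *Dclre1c* values was not tested.

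**Figure D3:**
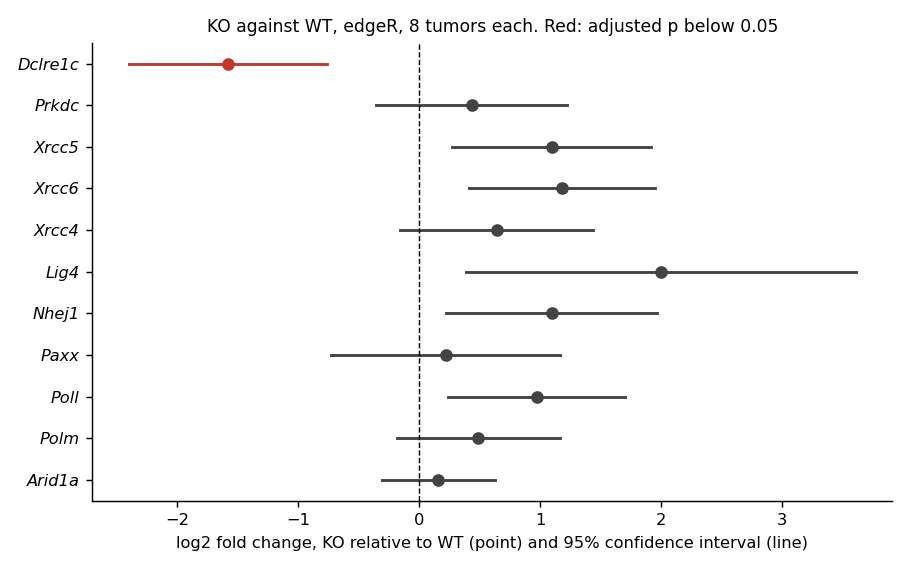
Log2 fold change of each NHEJ gene and of *Arid1a*, KO relative to WT, from edgeR (points) with 95% confidence intervals (lines), 8 tumors in each group. *Dclre1c* (red) is the only gene past the threshold and the only member left of 0, and the interval of *Lig4* is the widest.

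*Dclre1c* was also compared with its partners within tumors. The log2 ratio of *Dclre1c* to *Prkdc*, the nuclease and its kinase, was −2.47 ± 0.62 (SD, n = 8) in KO, from −3.37 to −1.52, and −0.50 ± 0.67 (SD, n = 8) in WT, from −1.68 to −0.01. Of the KO tumors 7 were below every WT tumor, and the exception, Massa, had 4 counts for the pair. The difference of −1.97 was larger than the spread between tumors (two-sided exact permutation test, p = 0.000311, adjusted over 5 ratios 0.00155). Over the means of the 12 mice it was −1.62 (exact p = 0.00404, adjusted 0.0202). The ratio of *Dclre1c* to *Arid1a* differed by −2.05 (exact p = 0.000932, adjusted 0.00233), and by −1.66 over mice, where it was not past the threshold (exact p = 0.0303, adjusted 0.0758).

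*Poll* and *Polm* encode the polymerases λ and μ, which fill gaps at the joined ends. *Poll* (chr19:45552275-45560531, minus strand) had between 2.23 and 13.9 CPM in KO (median 8.04) and between 3.06 and 5.74 CPM in WT (median 3.74). The WT tumors were tightly grouped, 6 KO tumors lay above all of them, Zelda lay within their range and Massa, with 1 count, below. KO relative to WT, the log2 fold change was 0.97 (standard error 0.35, adjusted p = 0.109). DESeq2 placed *Poll* past the threshold (1.01, adjusted p = 0.0193), while exact permutation of its log2 CPM did not reach 0.05. That permutation gave p = 0.0505 over tumors and p = 0.192 over mouse means. *Polm* (chr11:5827860-5838016, minus strand) had between 4.46 and 25.6 CPM in KO (median 12.4) and between 6.77 and 16.6 CPM in WT (median 10.6). Medusa and Prince were above all WT tumors, Massa was below them and the 5 other KO tumors lay among them. Its log2 fold change was 0.49 (standard error 0.32, adjusted p = 0.375). The log2 ratio of *Poll* to *Polm* was −0.88 ± 0.62 (SD, n = 8) in KO and −1.30 ± 0.55 (SD, n = 8) in WT (exact permutation p = 0.173).

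*Xrcc4* (chr13:89774027-90089608, minus strand), the scaffold that holds the ligase, had between 1.34 and 20.1 CPM in KO (median 9.39) and between 3.18 and 10.1 CPM in WT (median 5.74). The extremes were both in shallow libraries, with 9 counts in Massa at the top and 1 count in Grilka at the bottom, and most of the other KO tumors lay within the WT range. On the log2 scale the fold change was 0.64 (standard error 0.38, adjusted p = 0.319). Of its exon bases 2.66% are shared with *Tmem167* on the opposite strand.

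*Nhej1* (chr1:74967139-75125200, minus strand), which encodes the accessory factor XLF, had between 1.49 and 12.1 CPM in KO (median 2.37) and between 0.852 and 1.81 CPM in WT (median 1.72). It was counted between 1 and 43 times per KO tumor and between 15 and 36 times per WT tumor. The 6 highest KO tumors were above all WT tumors, Grilka far above on 9 counts, while Prince and Montana lay within the WT range. Its log2 fold change was 1.10 (standard error 0.42, adjusted p = 0.128) and 0.65 without Grilka. Exact permutation of the *Nhej1* levels (log2 CPM) gave p = 0.00746 over tumors and p = 0.121 over mouse means.

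*Paxx* (chr2:25455141-25461094, minus strand), the other XRCC4-like accessory factor, had between 0 and 12.2 CPM in KO (median 7.95) and between 3.33 and 9.51 CPM in WT (median 5.57). It had 0 counts in Grilka, where 3 counts are 4.03 CPM and the 95% exact Poisson upper bound of 0 counts is 4.95 CPM, and the groups overlapped on both sides. The log2 fold change was 0.22 (standard error 0.45, adjusted p = 0.816).

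*Lig4* (chr8:9969049-9977686, minus strand) encodes the ligase that seals the break. It had between 5.63 and 222.8 CPM in KO (median 8.78) and between 4.71 and 18.4 CPM in WT (median 8.95). The medians were alike, and the highest value stood apart: 1055 counts in Medusa (95% exact Poisson interval 209.6 to 236.7 CPM), while every other tumor had 18.4 CPM or less. Its log2 fold change of 2.0 (standard error 0.77, adjusted p = 0.132) came from this tumor, and it was −0.01 without Medusa (adjusted p = 0.994). DESeq2, which replaces outlying counts in groups of this size, gave −0.04. The log2 ratio of *Lig4* to *Xrcc4* was 0.79 ± 2.06 (SD, n = 8) in KO and 0.61 ± 0.87 (SD, n = 8) in WT (exact permutation p = 0.847).

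The genes around *Lig4* were then read in Medusa, a step chosen after the value of *Lig4* was seen. A gene was counted as raised in Medusa when Medusa was the highest of the 16 tumors and over 2 log2 units above the median of the other 15, which held for 309 of all 15413 genes tested (2.0%). Within 5 Mb on either side of *Lig4* it held for 18 of 49 tested genes (36.7%), and on the rest of chromosome 8 for 9 of 736 (1.22%). The 18 and the 49 include *Lig4* itself, whose value prompted this step. The 18 genes formed separate stretches. *Lig4*, *Abhd13*, *Tnfsf13b* and *Myo16* lay side by side within 0.185 Mb of the *Lig4* start, and the other 14, from *Mcf2l* to *Erich1*, lay between 2.90 and 4.06 Mb from it, with genes between and among them that were not raised.

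*Abhd13*, whose annotated start faces that of *Lig4*, had 281.1 CPM in Medusa and at most 72.5 CPM elsewhere. *Myo16*, a myosin gene, had 771.5 CPM in Medusa and at most 24.2 CPM elsewhere. In the distant stretch *Tfdp1*, which encodes the partner of E2F factors, had 3155 CPM against at most 194.3, *Cul4a*, the scaffold of a ubiquitin ligase, had 2814 against at most 177.0, and *Cdc16*, a subunit of the anaphase-promoting complex, had 2150 against at most 164.3. Between the stretches *Irs2* had 14.99 CPM in Medusa and between 28.4 and 163.5 CPM elsewhere. These genes were named after their values were seen. The table holds RNA counts only, and the number of DNA copies of the region was not tested.

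**Figure D4:**
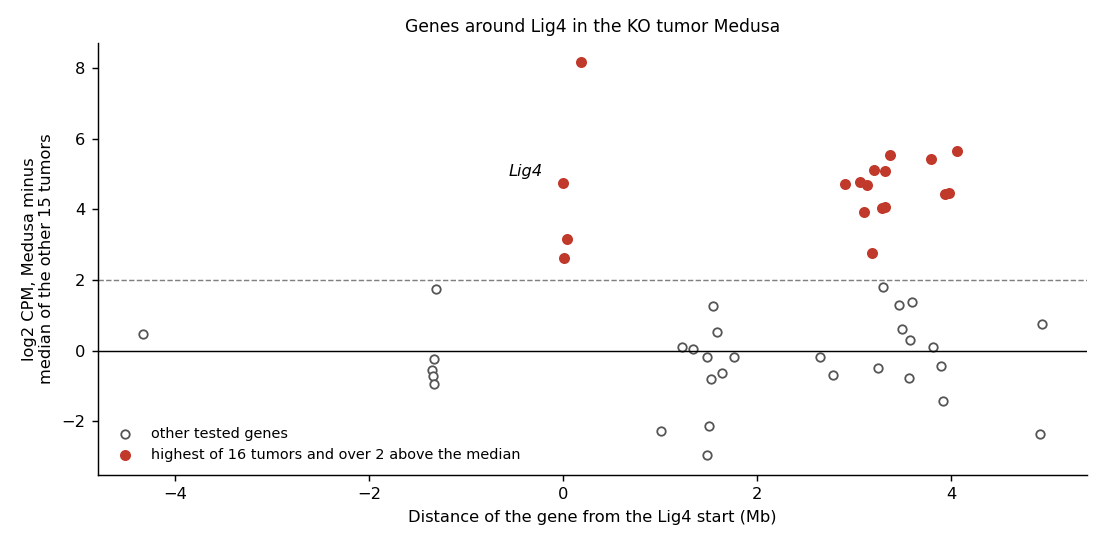
Log2 CPM of each tested gene in the KO tumor Medusa minus the median of the other 15 tumors (vertical axis) by its distance from the *Lig4* start in Mb (horizontal axis). Filled points are the 18 genes counted as raised, which lie in a stretch that begins at *Lig4* and in another between 2.90 and 4.06 Mb away, with unraised genes between them, some near 0 and some, such as *Irs2*, below −2.

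Relations between members were computed over the 8 KO tumors, each from its own mouse, for all 45 pairs. Of these, 28 had a positive and 17 a negative Pearson's r, the median r was 0.12, and 2 pairs passed the adjusted threshold. *Dclre1c* and *Prkdc* had r = 0.90 (exact permutation p = 0.00139, adjusted 0.0313, rho 0.76 with exact p = 0.0368), and r = 0.65 without Massa and Grilka, the 2 tumors farthest from the median of *Dclre1c* and also the shallowest libraries. Over the 8 WT tumors the same pair had r = −0.56, given as a description because these come from 4 mice, and the difference between the groups was not tested. Relative to the mean of the other members, r in KO was 0.75 and no longer past the threshold (exact permutation p = 0.0260, adjusted 0.584). *Nhej1* and *Paxx* had r = −0.98 (exact permutation p = 0.000372, adjusted 0.0167, rho −0.90), −0.81 without Ohio and Grilka, and −0.70 relative to the other members, where the call was lost (exact permutation p = 0.0822, adjusted 0.616). Both genes had few counts, with 0 of *Paxx* in Grilka and 1 of *Nhej1* in Massa, and r over the WT tumors was −0.14. For the Ku pair r was 0.79 (exact permutation p = 0.0305, adjusted 0.218) and for *Poll* and *Polm* 0.75 (exact permutation p = 0.0325, adjusted 0.218), neither past the threshold.

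*Arid1a* and *Dclre1c* were related in the same way. Over the 8 KO tumors r was 0.32 (exact permutation p = 0.439) and rho 0.14 (exact p = 0.752), and without Massa and Grilka, the 2 farthest tumors, r was 0.31. Over the 8 WT tumors of 4 mice r was −0.65. Among the WT mice N215 had the highest *Arid1a* level, 236.4 CPM, and the second lowest *Dclre1c* level, while N42 averaged 150.2 CPM of *Arid1a* and had the highest *Dclre1c* level. None of the 10 relations of *Arid1a* with the members in KO passed the adjusted threshold, and the smallest exact p were those for *Xrcc4* (r = −0.77, exact p = 0.0129, adjusted 0.129) and *Xrcc6* (r = 0.69, exact p = 0.0262, adjusted 0.131).

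**Figure D5:**
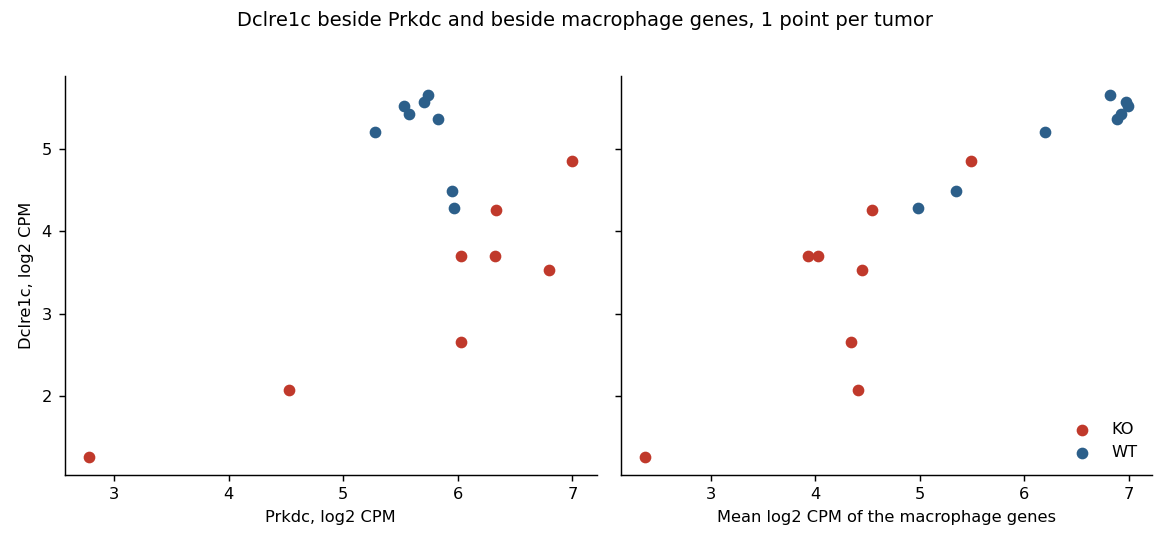
*Dclre1c* in log2 CPM (vertical axis) against *Prkdc* in log2 CPM (left) and the mean log2 CPM of the macrophage genes (right), 1 point per tumor, KO in red and WT in blue. On the left the WT tumors lie above the KO tumors of like *Prkdc* level, with r = 0.90 in KO. On the right the WT tumors follow a line (r = 0.97), and the KO tumors lie lower on both axes except that Zelda reaches the levels of N215 and N25.

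The genes whose levels were most like *Dclre1c* over the 16 tumors were not members. The highest r were those of *Gm37660* (0.98), the long non-coding RNA gene *Gm46224* (0.96), *1500011B03Rik* (0.96), *P2ry12* (0.96), a receptor of microglia and some macrophages, and *Mfap3* (0.95). The lowest were those of *Gm26461* (−0.96), *Rn7s6* (−0.96), *Rn7s2* (−0.96), *Gm25492* (−0.95) and *Ppp1r35* (−0.95). *Rn7s6* and *Rn7s2* are near-identical copies of the RNA of the signal recognition particle, whose reads the alignment may have split between copies. *Rn7s2* averaged 64081 CPM in KO and 603.6 CPM in WT, so the share of this structural RNA in a library moved opposite to *Dclre1c*. Its part in the result was not tested. Among the members r with *Dclre1c* over the 16 tumors ran from −0.53 for *Nhej1* to 0.50 for *Prkdc*. These coefficients describe 16 libraries that share depth, cell content and group, and no test was made of them.

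The genes around the NHEJ core were read from lists written by role. Of 12 tested genes of end protection and pathway choice 9 had positive and 3 negative log2 fold changes (55.9% of all tested genes were positive), and none passed the test. The most abundant were *Rif1* (0.25, adjusted p = 0.726), *Trp53bp1* (0.85, adjusted p = 0.151) and *Atm* (0.29, adjusted p = 0.675), which encode a pair of factors that protect ends from resection and a kinase of the damage signal. Of 10 accessory end-processing genes 9 were positive and 1 negative, and none passed.

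Of 7 genes of alternative end joining, the pathway that uses short homologies, all had positive values, and *Parp1*, which encodes the poly(ADP-ribose) polymerase that senses breaks, passed the test, 1 gene of 7 beside 1.86% of all genes tested called higher. *Parp1* averaged 93.7 CPM in the KO tumors (SD 30.03, n = 8) against 45.1 CPM in WT tumors (SD 9.94, n = 8), a log2 fold change of 1.06 (standard error 0.23, adjusted p = 0.0160 by edgeR). The medians of these 3 lists were 0.32, 0.52 and 0.52, beside 0.81 for the members and 0.10 for all tested genes. Of the genes of antigen receptor assembly only *Hmgb1* (0.02) and *Hmgb2* (0.67) were tested, neither past the threshold. Of 6 relatives of the NHEJ nuclease, polymerases and ligase 4 were positive and 2 negative, none past the test, with *Dclre1a* at 0.01 (adjusted p = 0.992) and *Dclre1b*, which with it makes up the rest of the nuclease family of *Dclre1c*, at −0.58 (adjusted p = 0.405). Of the other ARID subunits of the SWI/SNF complex, *Arid1b* was at 0.01 (adjusted p = 0.984) and *Arid2* at −0.96 (adjusted p = 0.0660). The 20 proliferation genes had 12 positive and 8 negative values, none past the test, with a median of 0.06.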

How the data were processed

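RNA was measured in 16 tumors after removal of ribosomal RNA, with single-end sequencing. The authors aligned the reads with Novoalign 2.08.01 to mm10 and Ensembl transcript junctions, kept the best of the several alignments allowed for a read, counted reads per gene with USeq, and tested the groups with DESeq2 1.26.0. The deposited values used here are these raw counts per gene, with no normalization. The smallest depth, 1109487 counts, limits what Massa can show, and a floor of 3 counts and all Poisson intervals cover counting error only. Groups and mice came from the labels, and nothing says that tumors of a mouse are independent.

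KO was compared with WT in edgeR 4.0.16 (R 4.3.3) with TMM, filterByExpr (minimum count 10, minimum total 15), glmQLFit and glmQLFTest with no covariate, and Benjamini-Hochberg adjustment over 15413 genes with a threshold of 0.05. The script was tested on simulated data. Log2 CPM used a prior count of 2. DESeq2 1.42.0, limma 3.58.1 with statmod 1.5.0, other scalings and filters, thinned counts, covariates and omitted tumors were alternatives. Ratios and correlations used two-sided exact permutation tests in Python 3.11.15 with numpy 2.4.6, scipy 1.17.1 and pandas 2.3.3, and the figures matplotlib 3.10.9. Positions come from GENCODE vM21 (GRCm38, the build of mm10), in which 24974 gene identifiers were found (99.7%), and promoters from RefSeq.

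The members and lists were chosen with earlier results of these data known. The text names the 10 members, *Arid1a*, neighbor genes past the threshold or among the 3 most abundant of their lists, the 5 genes at each end of likeness to *Dclre1c*, and at most 3 abundant markers per list. Genes outside this rule are *Lig4*'s neighbors, *Dclre1a*, *Dclre1b*, *Dntt*, the overlapping genes *Suv39h2*, *Desi1* and *Tmem167*, and *Gm23935*.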

Additional observations from a re-analysis of the deposited data

Results flagged for a closer look

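In 5 of 32 groups of 8 tumors (each member and *Arid1a*, and each of the 5 ratios, in KO and in WT) a single tumor lay far outside the others by Dixon's test on log2 CPM. Chance gives such a tumor in about 1 of 20 groups. All 5 were in KO. In *Lig4* it was Medusa, at a log2 CPM of 7.80. In *Xrcc6* it was Massa, the lowest at 1.263. In Grilka *Xrcc4* was the lowest at 0.60, *Nhej1* the highest at 3.62 and *Paxx* the lowest at −2.56. The value of *Lig4* in Medusa rests on 1055 counts, while the other 4 rest on between 0 and 9 counts in the 2 shallowest libraries.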

How the results depend on the processing

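The number of members past the threshold was 1 in the analysis above and remained 1 with RLE scaling, without a filter on low counts, without the N25 lung tumor and with counts thinned to equal depth, where 5 members had too few counts to be tested. It was 4 with DESeq2 (*Dclre1c*, *Xrcc5*, *Xrcc6* and *Poll*, with 12.5% of all genes called) and 3 without Massa and Grilka (*Dclre1c*, *Prkdc* and *Xrcc6*, with 5.36% called). It was 0 with limma-voom and the mouse as a random effect (0.110% called), with counts summed per mouse (0.0625%) and with the macrophage covariate (0.396%). It was also 0 without the 4 tumors of N42 (8 of 16050 genes called), without Prince, Montana and Oregon (439 of 16616) and with *Gm23935* as a covariate (8 of 15413). Without each tumor in turn it was between 0 and 3, in fits that called between 252 and 1348 genes.

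*Dclre1c* lost the call with limma-voom (−1.29), counts summed per mouse (−1.27), without N42 (−1.22), without Prince, Montana and Oregon (−1.44) and with the *Gm23935* covariate (−0.66), and turned to 0.054 with the macrophage covariate. Its leave-one-out range was −1.89 to −1.47. *Lig4* reversed with DESeq2 (−0.044), the *Gm23935* covariate (−0.53) and without Medusa (−0.0091, and from there to 2.24 over single omissions). *Paxx* reversed with limma-voom (−0.064), without Prince, Montana and Oregon (−0.40) and with the macrophage covariate (−0.73), and *Arid1a* with the *Gm23935* covariate (−0.12), none past the threshold. The cause was not tested beyond the omitted tumors and covariates themselves.

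The ratio of *Dclre1c* to *Prkdc* kept its call under the 5 alternatives run for ratios and all 16 omissions of a single tumor. Ratios were not tested without all tumors of N42 or with a covariate, settings in which *Dclre1c* itself lost its call. The ratio of *Dclre1c* to *Arid1a* lost its call over mouse means (−1.66). *Xrcc5* to *Xrcc6* reversed over mouse means (−0.17), without Massa and Grilka (−0.058) and without 5 single tumors (range −0.15 to 0.16), and *Lig4* to *Xrcc4* over mouse means (−0.058), without Massa and Grilka (−0.061) and without Medusa or Grilka (range −0.37 to 0.44), all near 0 and not past the threshold. The correlation of *Arid1a* with *Dclre1c* turned to −0.14 relative to the mean of the other members. The 2 correlated pairs fell to 0 on that scale, without the 2 farthest tumors and without Massa and Grilka, where 6 tumors leave the exact test little room after adjustment.

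No paired analysis was possible because no mouse gave tumors to both groups. Depth limits the low members in Massa and Grilka.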
